A study of Mus musculus with 21 samples.

Results

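The chemokine ligands and receptors of mouse liver are described here from RNA-seq of whole tissue. They are the genes of the deposited table whose symbols begin with Ccl, Cxcl, Ccr or Cxcr and a digit, with Cx3cl1, Xcl1 and Cx3cr1. Ccrl and Ccrn genes and a further CC receptor were left out and are not analysed here. The rule found 57 of 22520 genes, of which 39 are ligands and 18 are receptors. The 25 genes that reached 1 FPKM (fragments per kilobase, a level corrected for gene length and library size) in at least 1 of 12 columns are described, namely 20 ligands and 5 receptors. Of the other 32, 6 were listed at 0 in every column (Ccl19, Ccl21a, Ccl21b, Ccl21c, Ccl27b and Ccl28) and 26 stayed above 0 but under 1 FPKM.

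The livers came from 4 genotypes on a mixed 129SV::FVB/N::C57BL/6 background, each in 3 conditions. DKO mice were Ezh1-/-Ezh2fl/flAlb-Cre, E2KO mice were Ezh2fl/flAlb-Cre, E1KO mice were Ezh1-/-, and WT mice were Ezh2fl/fl without Cre. Ezh1 and Ezh2 are alternative catalytic subunits of PRC2, the complex that methylates lysine 27 of histone H3. Alb-Cre is driven by the albumin promoter, so it deletes floxed Ezh2 in hepatocytes and leaves it in the macrophages and endothelium of the liver. The conditions were 3 months of age with CCl4, 8 months and 2 months of age. CCl4 (carbon tetrachloride) is a toxin that hepatocytes activate, and its dose and schedule are not stated in the labels. No untreated group of 3 months was used, so the effects of CCl4 and of the age difference cannot be told apart.

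Each group had 1 column, which per the sample titles stands for replicates 1 to 3, or 1 to 2 at 8 months, with no spread between animals. A column summed to between 531761 and 674119 FPKM. The sequencing depth is unknown. Ezh1 stood at 0.27, 0.06 and 0.07 FPKM in DKO and at 0.20, 0.88 and 0.07 FPKM in E1KO, against 2.05, 2.04 and 2.38 FPKM in WT (CCl4, 8 months and 2 months). Ezh2 stood at 2.51, 1.27 and 0.74 FPKM in DKO and at 3.92, 0.79 and 0.84 FPKM in E2KO, against 5.68, 0.91 and 1.11 FPKM in WT. Cells in which Cre is not active keep Ezh2, and a value over the whole gene model does not show the deleted part. The 8-month E1KO column held more Ezh1 than the other columns without Ezh1, and the summed level of 8 skeletal muscle markers was 362 FPKM there, against 1.25 to 1.92 FPKM in the other columns. The results below that change without this column are named as such. Hepatocyte markers, the check of the liver label, were abundant in every column, with sums of 3639 to 9975 FPKM with CCl4 and 9561 to 14452 FPKM in the 8 untreated columns.

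Chemokines are small secreted or membrane-tethered proteins that draw leukocytes along a gradient by binding G protein-coupled receptors. In the liver they are made by hepatocytes, Kupffer cells, stellate cells and endothelium, and after injury they bring in monocytes and neutrophils. Some are made steadily and position resident cells, while others are induced by inflammatory signals through NF-kappa B, interferon or AP-1.

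Promoter windows of 300 bases, from 250 before to 50 after a start site, were at hand for 16 of the 25 genes (RefSeq, GRCm38.p6). The Ccl6 window is shown because this ligand had the largest difference with CCl4 on the log2(FPKM + 1) scale, and Ccl9 because it is its neighbour and rose too. Cxcl1 is shown because its DKO difference changed most between CCl4 and 2 months, and Cxcl9 and Cxcl10 because their windows held the most kinds of motif while their levels showed no call with CCl4. The last 4 were picked after their values were seen. Ccl2, the second largest on that scale, is named only. Capitals mark matches to the motifs searched. All are given 5′ to 3′ on the strand of the gene, and lie at chr11:83593038-83593337 (minus strand, Ccl6), chr11:83578587-83578886 (minus strand, Ccl9), chr5:90890995-90891294 (plus strand, Cxcl1), chr5:92328030-92328329 (minus strand, Cxcl9) and chr5:92348840-92349139 (minus strand, Cxcl10).
Ccl6: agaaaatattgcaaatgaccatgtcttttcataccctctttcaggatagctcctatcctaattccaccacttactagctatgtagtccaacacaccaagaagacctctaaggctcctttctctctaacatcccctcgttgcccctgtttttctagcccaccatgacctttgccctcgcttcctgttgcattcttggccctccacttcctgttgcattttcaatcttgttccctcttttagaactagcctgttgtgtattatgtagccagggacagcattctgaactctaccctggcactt
Ccl9: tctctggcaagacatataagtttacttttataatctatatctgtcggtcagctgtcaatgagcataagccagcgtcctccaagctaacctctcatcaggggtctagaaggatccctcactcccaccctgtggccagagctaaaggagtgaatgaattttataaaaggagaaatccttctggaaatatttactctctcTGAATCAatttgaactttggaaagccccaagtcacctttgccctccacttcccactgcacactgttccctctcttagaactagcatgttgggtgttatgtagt
Cxcl1: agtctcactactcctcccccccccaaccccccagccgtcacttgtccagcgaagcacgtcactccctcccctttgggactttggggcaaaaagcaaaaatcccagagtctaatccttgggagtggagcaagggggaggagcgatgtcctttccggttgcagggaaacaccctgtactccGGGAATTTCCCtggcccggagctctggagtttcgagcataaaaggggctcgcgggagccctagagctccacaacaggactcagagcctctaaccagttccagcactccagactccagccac
Cxcl9: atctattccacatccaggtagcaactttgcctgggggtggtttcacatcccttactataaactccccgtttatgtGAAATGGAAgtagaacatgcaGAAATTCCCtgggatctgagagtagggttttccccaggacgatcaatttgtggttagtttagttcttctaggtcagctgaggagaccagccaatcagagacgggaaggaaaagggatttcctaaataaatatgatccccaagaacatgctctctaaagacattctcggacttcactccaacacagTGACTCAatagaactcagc
Cxcl10: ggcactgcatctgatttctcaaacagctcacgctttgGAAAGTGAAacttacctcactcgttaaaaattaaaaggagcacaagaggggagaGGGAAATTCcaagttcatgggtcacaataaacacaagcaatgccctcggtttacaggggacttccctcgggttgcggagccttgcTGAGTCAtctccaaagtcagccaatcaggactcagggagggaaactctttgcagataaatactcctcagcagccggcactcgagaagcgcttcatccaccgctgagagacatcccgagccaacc

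The motifs were searched on both strands. The counts below are of the 16 genes, which had 19 windows, while the background shares are of windows, each counted once. A gene with more than 1 window, such as Ccl27a, has more places for a match. The kappa B motif GGGANNTTC occurred in 3 of the 16 genes, Cxcl1, Cxcl9 and Cxcl10, and in 3.94% of 32851 mouse promoter windows. In Cxcl1 the match GGGAATTTC began 71 bases before the start site and overlapped a match on the other strand. In Cxcl10 the match GGGAAATTC began 159 bases before the start site, and in Cxcl9 a match on the other strand began 154 bases before it. The interferon-stimulated response element, searched as GAAANNGAA, occurred in 4 genes (Ccl3, Cxcl9, Cxcl10 and Cxcl14), against 8.56% of all windows. In Cxcl10 it read GAAAGTGAA and in Cxcl9 GAAATGGAA, 213 and 175 bases before the start site. The AP-1 motif TGANTCA occurred in 4 genes (Ccl9, Ccl27a, Cxcl9 and Cxcl10), against 7.81% of windows. The C/EBP motif TTGCNNAA was in Ccl27a and Cxcl13 (10.8% of windows), the gamma-activated site TTCNNNGAA in Cxcl14 (8.3%), and the PU.1 motif GAGGAAGT in no window of these genes (3.2%). The Ccl6 window held none of the 6 motifs. The Ccl6 and Ccl9 windows aligned locally over 74 columns, of which 59 were identical (79.7%), at bases 192 to 265 of Ccl6 and 233 to 299 of Ccl9.

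In level, Cxcl12 led all described chemokine genes in every column. Ccl9 came second except in DKO with CCl4, where Cxcl1 did, and only Cxcl12 and Ccl9 were at 10 FPKM or more throughout. Cxcl12, which holds stem cells and lymphocytes in place through Cxcr4, averaged 98.2 FPKM over the 12 columns, with a lowest value of 75.5 and a highest of 126 FPKM. Its highest value was 1.66 times its lowest, and that of Ccl25, a ligand of thymus and gut, was 1.57 times its lowest (2.81 to 4.41 FPKM). Ccr1, the receptor of Ccl6 and Ccl9, had the largest such ratio of the described genes not listed at 0 anywhere, 99 (0.02 to 1.98 FPKM). That ratio rests on a lowest value close to 0. By mean FPKM the next genes were Cxcl1 (11.9), Ccl6 (6.71), Ccl27a (6.42), Cxcl16 (3.83), Cxcl10 (3.75) and Cxcl9 (3.66).

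**Figure D1:**
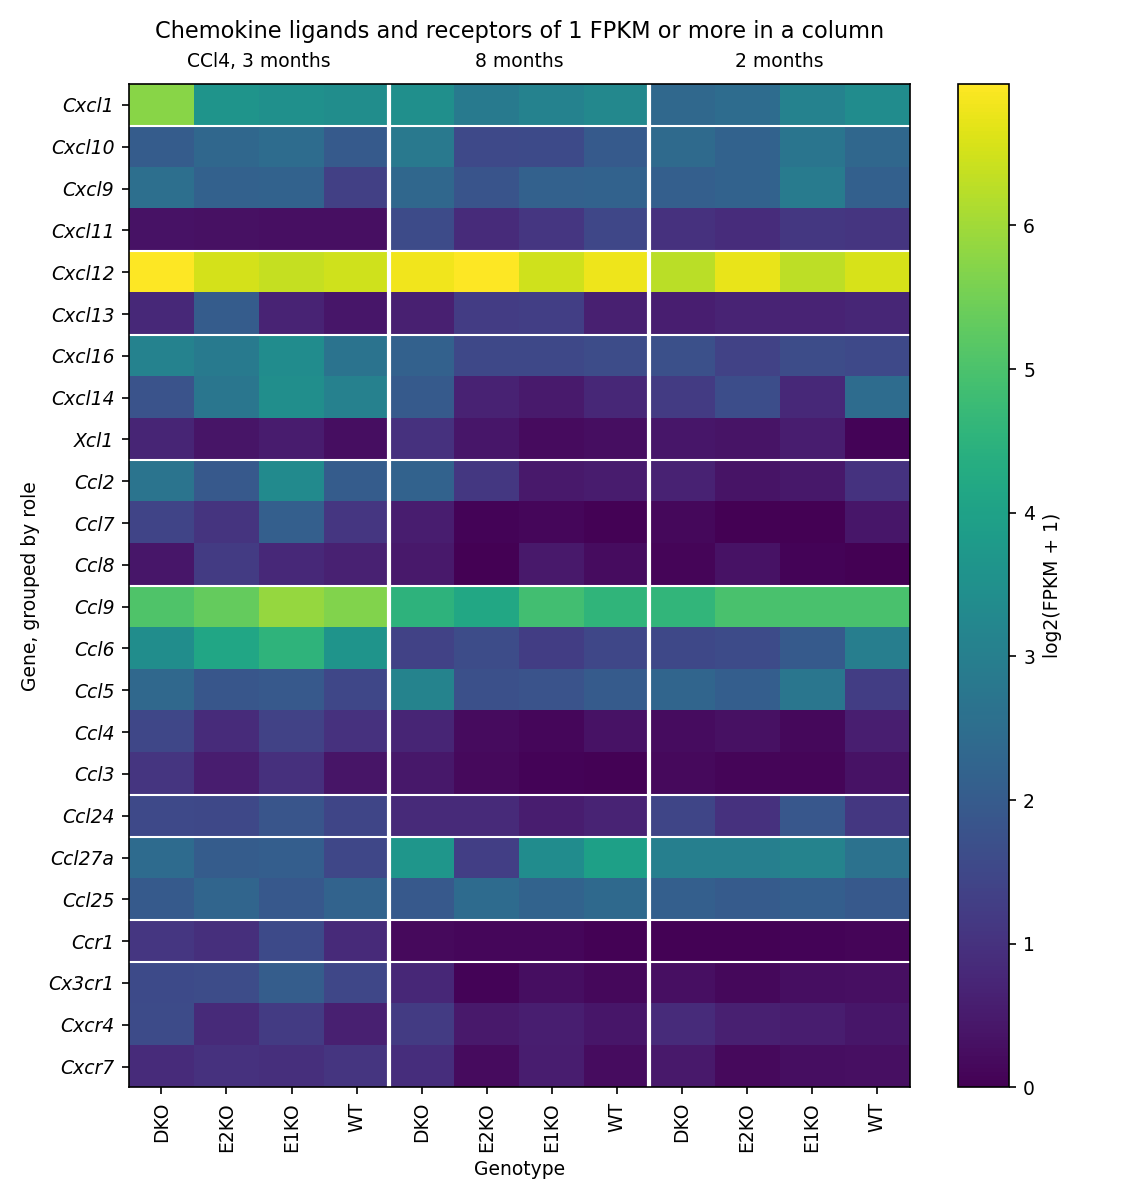
Heat map of log2(FPKM + 1) for the named chemokine genes of at least 1 FPKM in a column, 1 row per gene grouped by role and 1 column per genotype within CCl4 at 3 months, 8 months and 2 months. Cxcl12 is the brightest row throughout (75.5 to 126 FPKM), and Ccr1, Ccl7 and Cx3cr1 are lit mainly in the CCl4 columns.

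The first comparison asked which chemokine genes differed between CCl4 and 2-month liver. Values of log2(FPKM + 1) were fitted over all 12 columns with additive terms for genotype and condition (limma), for the 11394 genes that reached 1 FPKM in 2 or more columns. The 21 chemokine genes among them were tested, and p was adjusted by Benjamini-Hochberg over all 11394 genes. The spread behind each standard error is the departure of the columns from additivity, not that between animals. The added 1 FPKM makes each log2 difference smaller than the log2 ratio, most so in low genes.

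With CCl4 the monocyte attractants Ccl2 and Ccl7, the macrophage inflammatory ligands Ccl4, Ccl6 and Ccl9, the membrane ligand Cxcl16 and the neutrophil attractant Cxcl1 rose. So did the receptors Ccr1, Cx3cr1 and Cxcr4, while the CXCR3 ligand Cxcl11 fell and Ccl5 did not pass. Of the 21 genes tested, 11 were higher and 1 was lower, while 33.4% and 24.5% of all tested genes were higher and lower. The median difference was 0.60 over the 21 genes and 0.07 over all genes on the log2(FPKM + 1) scale. Because 5 of the 21 (Ccl4, Ccl7, Ccr1, Cx3cr1 and Cxcr4) entered the test only through their CCl4 columns, the other 16 are the fairer count. Among them 6 were higher and 1 lower, against 29% and 26.5% of the 10529 genes that pass without the CCl4 columns. These are counts of few genes and are not read as a result about the chemokine genes as a list. In whole tissue, more cells of a type and more RNA per cell cannot be told apart.

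Among the monocyte-attracting CC ligands, Ccl2 is the best-known signal that calls monocytes out of the blood. With CCl4 it stood at 5.40 FPKM in DKO, 2.90 in E2KO, 9.11 in E1KO and 3.12 in WT. At 8 months it was at 3.61 FPKM in DKO, 1.19 in E2KO, 0.40 in E1KO and 0.44 in WT, and at 2 months at 0.58, 0.29, 0.36 and 1.03 FPKM in the same order. Every CCl4 column lay above every 2-month column, but the 8-month DKO column lay inside the CCl4 range. The difference was 1.88 (SE 0.39, adjusted p = 0.00313), with means of 5.13 ± 2.88 FPKM with CCl4 and 0.565 ± 0.334 FPKM at 2 months (SD over 4 genotypes). Ccl7, a close relative with overlapping receptors, read 1.71, 1.09, 3.33 and 1.14 FPKM with CCl4 (DKO, E2KO, E1KO, WT). It was at most 0.46 FPKM in the untreated columns and listed at 0 in E2KO and E1KO at 2 months. No untreated column reached the CCl4 range (1.28, SE 0.22, adjusted p = 0.00116). Ccl8 passed 1 FPKM in 1 column alone, E2KO with CCl4 (1.31 FPKM), and was therefore not tested.

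Of the macrophage inflammatory CC ligands tested, Ccl6, Ccl9 and Ccl4 rose, and Ccl5 did not pass. Ccl6, a mouse ligand of Ccr1 made by myeloid cells, stood at 9.67 FPKM in DKO, 16.5 in E2KO, 22.5 in E1KO and 11.3 in WT with CCl4. At 8 months these 4 genotypes read 1.62, 2.08, 1.39 and 1.78 FPKM, and at 2 months 1.83, 2.01, 2.91 and 6.98 FPKM. The CCl4 columns were all above the untreated ones, of which the 2-month WT column was highest. The difference of 1.91 (SE 0.32, adjusted p = 0.00101) was the largest of the 21 on the log2(FPKM + 1) scale. With a pseudocount of 0.1 FPKM it was 2.23, and the low genes Ccl7 (3.31), Ccr1 (3.15), Cx3cr1 (2.99) and Ccl2 (2.95) stood above it. Ccl9, its neighbour on chromosome 11 and also a ligand of Ccr1, was at 32.3 FPKM in DKO, 39.6 in E2KO, 57.6 in E1KO and 49.2 in WT with CCl4. It was at 21.7, 17.3, 28.1 and 22.8 FPKM at 8 months and 23.4, 30.2, 30.8 and 30.6 FPKM at 2 months in that order. Again no untreated column reached the lowest CCl4 column, but the margin was narrow (0.60, SE 0.13, adjusted p = 0.00407).

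Ccl4, a ligand that macrophages and lymphocytes make, rose by 0.86 (SE 0.16, adjusted p = 0.00205), at 0.80 to 1.81 FPKM with CCl4 and 0.09 to 0.66 FPKM untreated. Ccl3, its relative, reached 1 FPKM in the DKO column with CCl4 alone (1.11 FPKM) and was not tested. Ccl5, which recruits T cells and is itself a product of T and NK cells, averaged 2.89 ± 0.98 FPKM with CCl4 and 3.55 ± 1.75 FPKM at 2 months (SD over 4 genotypes), and did not pass (-0.17, SE 0.27, adjusted p = 0.607).

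**Figure D2:**
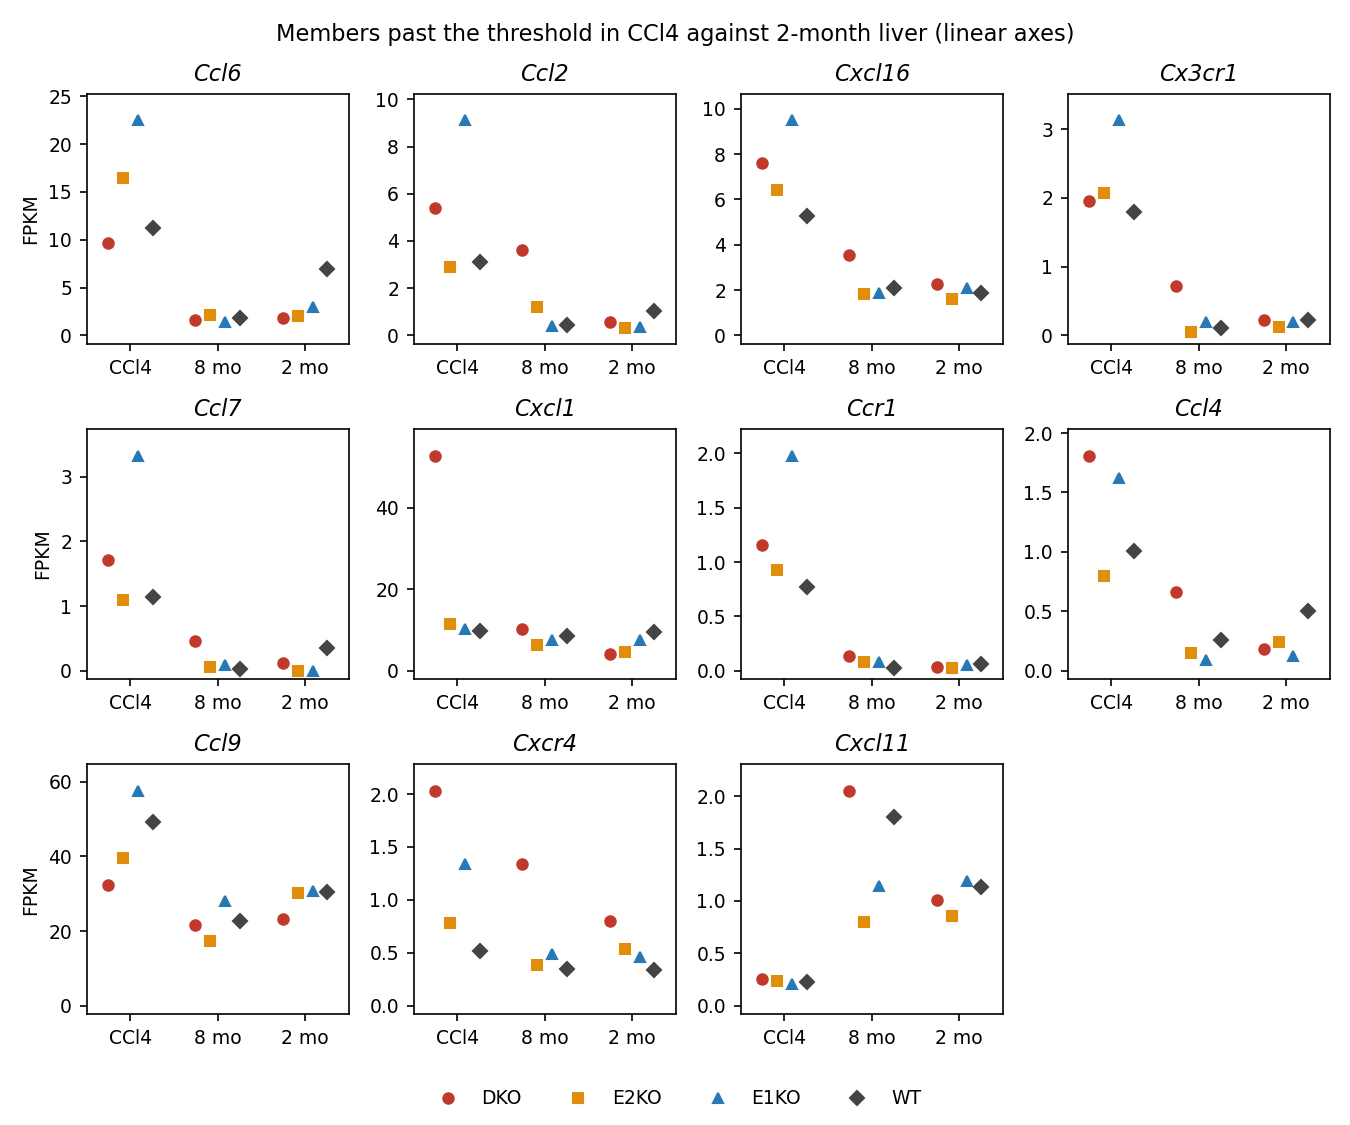
FPKM (linear axes) of the named chemokine genes past the threshold in CCl4 against 2-month liver, by condition (CCl4 at 3 months, 8 months, 2 months), with 1 point per group (DKO circles, E2KO squares, E1KO triangles, WT diamonds). In Cxcl16 the CCl4 points (5.27 to 9.49 FPKM) clear all others, in Cxcl1 the DKO point at 52.9 FPKM stands alone, and in Cxcl11 the CCl4 points lie lowest.

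Cxcl1, the main neutrophil attractant of this group, rose by 1.24 (SE 0.46, adjusted p = 0.0434), and that call rested largely on DKO. With CCl4 it stood at 52.9 FPKM in DKO, 11.4 in E2KO, 10.3 in E1KO and 9.64 in WT. At 8 months it read 10.2, 6.25, 7.55 and 8.54 FPKM in the same order, and at 2 months 4.12, 4.57, 7.63 and 9.44 FPKM. Without the CCl4 DKO column the difference was 0.65 (adjusted p = 0.0586), and without the 8-month E1KO column it was 1.24 (adjusted p = 0.0598). The other neutrophil-attracting CXC ligands, Cxcl2, Cxcl3, Cxcl5 and Cxcl15, stayed under 1 FPKM in every column, and Cxcl2 was at most 0.53 FPKM, in WT at 2 months. Cxcr2, the neutrophil receptor for these ligands, lay between 0.48 and 0.91 FPKM throughout.

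Of the 3 CXCR3 ligands, which interferon induces and which call activated T and NK cells, Cxcl11 fell and the other 2 did not pass. Cxcl11 was at 0.26 FPKM in DKO, 0.24 in E2KO, 0.21 in E1KO and 0.23 in WT with CCl4, while the untreated columns lay between 0.80 and 2.05 FPKM. The ranges do not overlap (-0.73, SE 0.13, adjusted p = 0.00165). Cxcl9 read 4.83, 3.49, 3.59 and 1.48 FPKM with CCl4, 4.06, 2.50, 3.47 and 3.59 FPKM at 8 months and 3.37, 3.61, 6.49 and 3.43 FPKM at 2 months (DKO, E2KO, E1KO, WT). Cxcl10 read 3.11, 4, 4.55 and 2.94 FPKM with CCl4, 6.09, 1.89, 1.97 and 2.94 FPKM at 8 months and 4.31, 3.58, 5.51 and 4.08 FPKM at 2 months in that order. Neither gene separated CCl4 from 2 months (-0.29, SE 0.23, adjusted p = 0.3 for Cxcl9 and -0.21, SE 0.26, adjusted p = 0.507 for Cxcl10). Cxcl10 and Cxcl11 each overlap the gene Art3, and whether the counting used strand is not stated. The same limit holds for Cxcl16 (Zmynd15), Ccl6 (E230016K23Rik), Cx3cr1 (Gm33858), Ccl5 (Gm32650) and Ccl25 (LOC108167518), and Ccl3 and Ccl4 overlap each other.

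Cxcl16, which is anchored in the membrane, also acts as a scavenger receptor and holds Cxcr6-positive lymphocytes in the liver sinusoids. It was at 7.62 FPKM in DKO, 6.41 in E2KO, 9.49 in E1KO and 5.27 in WT with CCl4. The same genotypes read 3.53, 1.83, 1.87 and 2.08 FPKM at 8 months and 2.28, 1.59, 2.10 and 1.89 FPKM at 2 months. Of the genes tested it had the smallest adjusted p, with 5.27 FPKM at the lowest CCl4 column against 3.53 FPKM at the highest untreated one (1.45, SE 0.14, adjusted p = 9.32e-05). Cxcr6 itself did not reach 1 FPKM in a column (0.20 to 0.61 FPKM).

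The homeostatic and epithelial ligands did not pass. Cxcl12 was at 126 FPKM in DKO, 92.1 in E2KO, 82.2 in E1KO and 88.8 in WT with CCl4. It read 114, 124, 88.5 and 111 FPKM at 8 months and 75.5, 107, 77.8 and 93.2 FPKM at 2 months. The ranges overlapped (0.13, SE 0.14, adjusted p = 0.451). Ccl27a, a skin-associated ligand of Ccr10, read 4.48, 3.09, 3.28 and 1.79 FPKM with CCl4, 11.7, 1.46, 9.62 and 14.6 FPKM at 8 months and 7.06, 7.14, 7.71 and 5.18 FPKM at 2 months. It was lower with CCl4 than at 2 months in all 4 genotypes, but the difference did not pass (-0.93, SE 0.46, adjusted p = 0.112). Ccl27a overlaps Il11ra1 (8.16 to 13.7 FPKM), and mouse carries near-identical copies of it (Ccl27b was listed at 0), so its value is uncertain. Ccl24, an eosinophil attractant, and Ccl25 gave differences of 0.23 (adjusted p = 0.26) and 0.06 (adjusted p = 0.654), and Cxcl13, the B cell attractant, 0.31 (adjusted p = 0.314).

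Among the receptors, Cx3cr1, the fractalkine receptor of monocytes and macrophages, stood at 1.96 FPKM in DKO, 2.07 in E2KO, 3.13 in E1KO and 1.80 in WT with CCl4. It was at 0.72, 0.05, 0.19 and 0.10 FPKM at 8 months and 0.23, 0.12, 0.19 and 0.23 FPKM at 2 months. No untreated column overlapped the CCl4 range (1.43, SE 0.15, adjusted p = 0.000129). Its ligand Cx3cl1 stayed under 1 FPKM, with a maximum of 0.87 FPKM in DKO at 8 months. Ccr1 read 1.16, 0.93, 1.98 and 0.77 FPKM with CCl4 (DKO, E2KO, E1KO, WT), 0.13, 0.08, 0.08 and 0.02 FPKM at 8 months and 0.03, 0.02, 0.05 and 0.06 FPKM at 2 months. This receptor was close to 0 in all 8 untreated livers (1.06, SE 0.13, adjusted p = 0.000215). Cxcr4 rose by 0.46 (SE 0.12, adjusted p = 0.0105), with ranges of 0.52 to 2.03 FPKM with CCl4 and 0.34 to 1.34 FPKM untreated that overlap.

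All 4 CCl4 columns lay above all 8 untreated columns in 8 of the 25 described genes (among them Ccl4, Ccl6, Ccl7, Ccl9, Ccr1, Cx3cr1 and Cxcl16), against 22.9% of the 11394 tested genes. They lay below in 1 gene, Cxcl11 (background 16.9%). Among the 16 genes that pass without the CCl4 columns, 4 lay above (background 19.1%) and 1 below (background 18.3%). With no filter on low values, 17 of all 57 chemokine genes were higher and 1 was lower with CCl4 against 2 months, against 22.1% and 13% of the 22520 genes of the table.

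Cell type markers moved with these genes. The counts that follow are of markers that pass without the CCl4 columns, against a background of 29% higher and 26.5% lower. The summed level of 10 Kupffer cell markers was 308 to 638 FPKM with CCl4 and 96.9 to 272 FPKM untreated, and 7 of the 10 rose. C1qa, C1qb, C1qc and Cd5l made up most of the sum with CCl4. Clec4f (26.0 to 41.3 FPKM with CCl4, 15.6 to 40.0 untreated) and Timd4 (1.78 to 4.03 and 0.99 to 3.04 FPKM) overlapped. Vsig4 (20.75 to 36.15 and 6.42 to 18.1 FPKM) and Clec1b (9.83 to 14.8 and 3.88 to 6.37 FPKM) did not. For 12 markers of recruited monocytes and macrophages the sums were 531 to 1034 FPKM with CCl4 and 55.1 to 342 FPKM untreated, and 6 of 7 rose, while Itgam, Trem2, Gpnmb and Chi3l3 entered the test only through CCl4 columns. Spp1, which is also on the list of bile duct cell markers, made up the largest share, and without it the sums were 165 to 382 FPKM with CCl4 and 23.9 to 51.5 FPKM untreated. The neutrophil markers summed to 208 to 1008 FPKM with CCl4 and 7.30 to 163 FPKM untreated, mostly Lcn2, which hepatocytes also make, and 3 of 3 rose (Lcn2, S100a8 and S100a9). S100a8 was at 7.22 to 26.1 FPKM with CCl4 and 1.11 to 9.01 FPKM untreated. S100a9 was at 5.73 to 25.1 FPKM with CCl4 and 1.01 to 9.50 FPKM untreated. The granule genes Ltf, Mpo and Elane were at most 0.18 FPKM in every column. Ngp and Camp reached 0.71 and 0.85 FPKM in E2KO with CCl4, and Camp 1.03 FPKM in DKO at 8 months. Retnlg, which entered the test only through its CCl4 columns, was at 1.06 to 3.64 FPKM with CCl4 and 0 to 0.44 FPKM untreated.

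Stellate cell markers summed to 117 to 217 FPKM with CCl4 and 9.37 to 40.0 FPKM untreated, and 7 of 7 rose. Endothelial markers summed to 108 to 121 FPKM with CCl4 and 39.3 to 85.0 FPKM untreated, and 7 of 7 rose. Of the bile duct cell markers 3 of 5 rose, with sums without Spp1 of 8.12 to 17.0 FPKM with CCl4 and 3.47 to 25.8 FPKM untreated. Of the B and plasma cell markers 3 of 3 rose, of which Sdc1, also a hepatocyte gene, was the most abundant. Of the 7 hepatocyte markers 3 fell and none rose, and of the dendritic cell markers 1 was tested and did not pass. The T and NK cell markers were low, at 1.68 to 5.56 FPKM with CCl4 and 2.03 to 5.96 FPKM untreated. The part of these cells in the chemokine results was not tested.

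Against 8-month liver, 12 of the 21 genes were higher with CCl4 and 1 was lower, while 34.3% and 25.2% of all tested genes were. Both comparisons use the same CCl4 columns. Of the 16 genes that pass without those columns, 7 were higher and 1 was lower (30.2% and 27.3% of such genes). Of the genes named so far, Ccl6 differed by 2.49 (SE 0.32, adjusted p = 0.000242), Cx3cr1 by 1.37 (SE 0.15, adjusted p = 0.000142) and Cxcl11 by -0.96 (SE 0.13, adjusted p = 0.000371). Called here and not against 2 months were Cxcl14 and Ccl24. Cxcl14, an epithelial ligand with no settled receptor, stood at 2.46 FPKM in DKO, 5.63 in E2KO, 9.89 in E1KO and 7.45 in WT with CCl4. It was at 2.94, 0.60, 0.43 and 0.73 FPKM at 8 months and 1.31, 2.14, 0.76 and 4.57 FPKM at 2 months. It differed from 8 months by 1.77 (SE 0.48, adjusted p = 0.0116) and from 2 months by 1.22 (SE 0.48, adjusted p = 0.0541), and DKO alone was lower with CCl4 than at 8 months. Ccl24 was at 1.92, 1.88, 2.57 and 1.77 FPKM with CCl4 and 0.79, 0.78, 0.46 and 0.62 FPKM at 8 months (DKO, E2KO, E1KO, WT), a difference of 0.87 (SE 0.16, adjusted p = 0.00201). Cxcr4 passed (0.39, SE 0.12, adjusted p = 0.0211), but not without the 8-month E1KO column (0.34, adjusted p = 0.0702), without E1KO (0.30, adjusted p = 0.117) or without E2KO (0.40, adjusted p = 0.0557). Cxcl1 did not pass here (0.90, SE 0.46, adjusted p = 0.119).

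Between 8 and 2 months none of the 21 genes passed in limma, while 2.7% of all tested genes were higher and 1.59% lower at 8 months. At an unadjusted p under 0.05 there were 2, Ccl24 (-0.64, SE 0.16, adjusted p = 0.0662) and Ccl9 (-0.35, SE 0.13, adjusted p = 0.155), both lower at 8 months. Of all 11394 tested genes 2533 were under 0.05 unadjusted. Ccl24 averaged 0.662 ± 0.156 FPKM at 8 months and 1.66 ± 0.77 FPKM at 2 months (SD over 4 genotypes), and it was lower at 8 months in all 4.

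**Figure D3:**
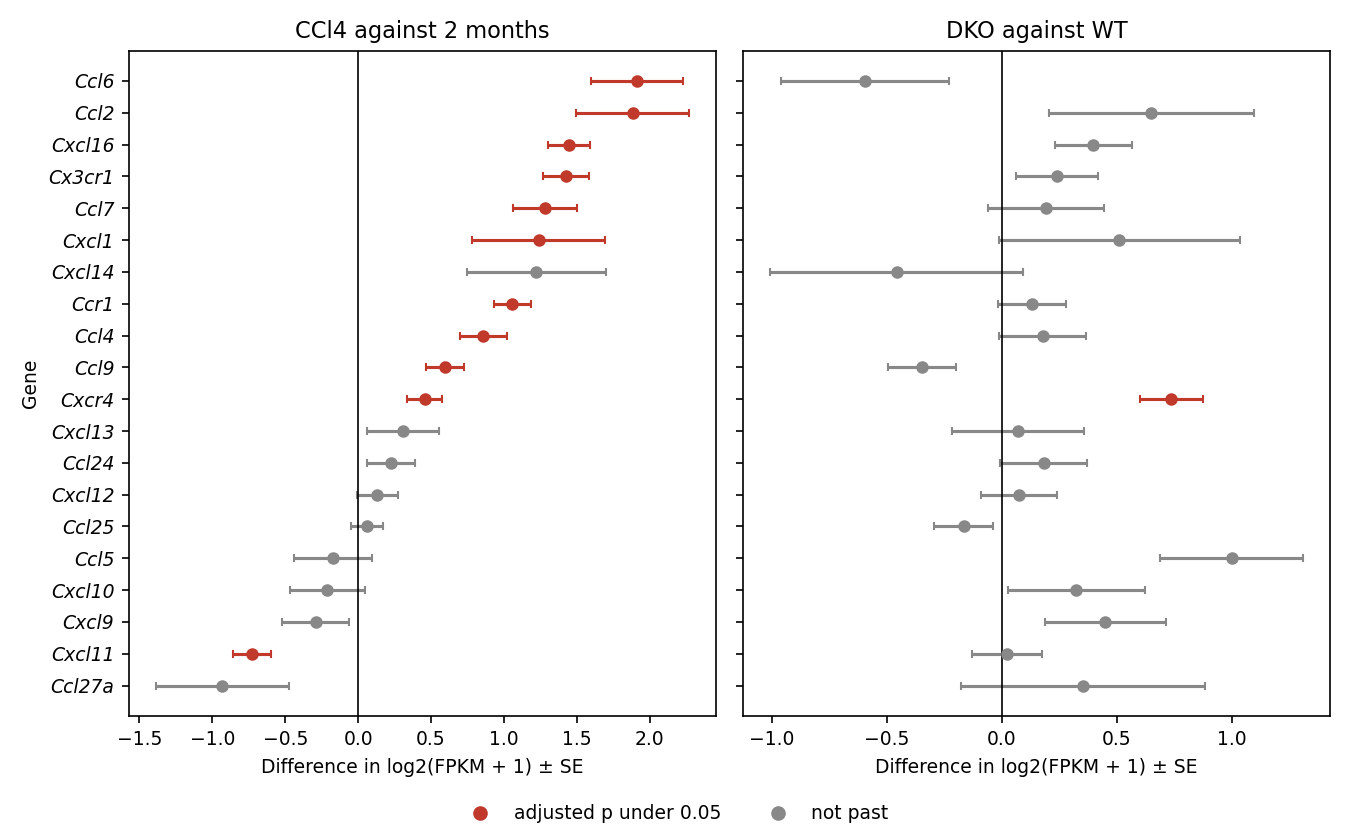
Differences in log2(FPKM + 1) with standard errors from the additive fit for the named chemokine genes that were tested, CCl4 against 2 months (left) and DKO against WT (right), in the same gene order; red marks an adjusted p under 0.05. On the left the red points run from 1.91 in Ccl6 to -0.73 in Cxcl11, and on the right only Cxcr4 is red (0.74).

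Between genotypes, Cxcr4 was the one chemokine gene that passed in DKO against WT. It was at 2.03 FPKM in DKO, 0.78 in E2KO, 1.34 in E1KO and 0.52 in WT with CCl4. At 8 months it was at 1.34, 0.39, 0.49 and 0.35 FPKM, and at 2 months at 0.80, 0.54, 0.46 and 0.34 FPKM, in the same order. DKO was the highest and WT the lowest genotype in all 3 conditions. The average was 1.39 ± 0.62 FPKM in DKO and 0.403 ± 0.101 FPKM in WT (SD over 3 conditions), a difference of 0.74 (SE 0.14, adjusted p = 0.0343). Thus 1 of 21 genes was higher in DKO and none was lower, against 1.81% and 0.816% of all tested genes. An unadjusted p under 0.05 was found in 4 of the 21, and in 2154 of all 11394 tested genes. Cxcr4 is 1 of 2 genes, with Ccr1, that would not have entered the test without the DKO columns, and of the other 19 none passed. Its call did not hold without the 8-month E1KO column (adjusted p = 0.05003), without the 8-month DKO column (adjusted p = 0.109), without the 2-month WT column (adjusted p = 0.0910) or without any 1 condition (adjusted p 0.135 to 0.214). Several immune marker sums, which are of 1 column each and were not tested, also stood apart between DKO and WT. T and NK cell markers summed to 5.56, 5.96 and 4.84 FPKM in DKO, against 1.68, 2.31 and 2.03 FPKM in WT (CCl4, 8 months and 2 months). Neutrophil markers without Lcn2 read 55.4, 20.6 and 8.20 FPKM against 14.2, 2.28 and 6.88 FPKM in that order. Recruited macrophage markers without Spp1 read 350, 51.5 and 43.7 FPKM against 165, 23.9 and 46.35 FPKM, so DKO was lower at 2 months. None of the 4 neutrophil and 11 recruited macrophage markers tested passed in DKO against WT (limma). In E1KO the T and NK cell markers summed to 3.80, 2.19 and 4.51 FPKM, above WT with CCl4 and at 2 months. Nkg7, the only T and NK cell marker tested, passed as higher in DKO (limma), but it would not have entered the test without the DKO columns. Outside DKO it reached 1 FPKM only in E1KO at 2 months (1.11 FPKM). The part of these cells in the Cxcr4 difference was not tested.

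The 3 others under 0.05 unadjusted were Ccl5 (1.00, SE 0.31, adjusted p = 0.136), Cxcl16 (0.40, SE 0.17, adjusted p = 0.242) and Ccl9 (-0.35, SE 0.15, adjusted p = 0.255). Ccl5 stood at 4.18 FPKM in DKO, 2.67 in E2KO, 2.90 in E1KO and 1.80 in WT with CCl4. It was at 7.67, 2.23, 2.44 and 3.05 FPKM at 8 months and 3.87, 3.26, 5.66 and 1.41 FPKM at 2 months. DKO was above WT in every condition, but E1KO was the highest genotype at 2 months. In DKO, 6 of the 25 described genes were above WT in all 3 conditions (Ccl5, Ccl24, Cxcl10, Cxcl16, Cxcr4 and Xcl1; 15.6% of all tested genes) and 2 were below (Ccl6 and Ccl9; 23.3%). In E2KO 4 were above (Ccl25, Cxcl12, Cxcr4 and Xcl1; 9.32%) and 4 below (Ccl4, Ccl9, Cxcl14 and Cxcr7; 9.82%). In E1KO 3 were above (Ccl8, Ccl9 and Cxcr4; 10.3%) and Cxcl12 alone below (15.5%). Some of these genes were let in by a single column, so their place in the counts is no support. Xcl1 is described only through DKO at 8 months (1.00 FPKM), Cxcr7 only through WT with CCl4 (1.10 FPKM) and Ccl8 only through E2KO with CCl4. Cxcr4 would not have been tested without the DKO columns. The shares are over genes of 1 FPKM in 2 or more columns, a stricter rule than that for the 25.

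In limma no chemokine gene passed in E2KO or E1KO against WT. In E2KO, where 0% of all tested genes passed in either direction, 1 had an unadjusted p under 0.05, Cxcl13 (0.73, SE 0.29, adjusted p = 1). In E1KO, where 0.0176% were higher and 0% lower, none had. Of all 11394 tested genes 155 were under 0.05 unadjusted in E2KO and 640 in E1KO. Ezh1 lies on chromosome 11, as do 9 of the 25 described genes (Ccl2 to Ccl9 and Cxcl16), so in DKO and E1KO the null allele and alleles linked to it on the mixed background cannot be told apart.

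The fit with DKO-by-condition terms asked whether the difference of DKO from the other genotypes depended on the condition. Cxcl1 gave the largest value with CCl4 against 2 months, 2.87 (SE 0.39), and its adjusted p of 0.0582 missed the threshold. The next was Cxcl12 by unadjusted p (0.79, SE 0.21, adjusted p = 0.314). No chemokine gene passed, against 0.219% of all tested genes higher and 0.0702% lower, and these 2 were under 0.05 unadjusted. Of all 11394 tested genes 1047 were under 0.05 unadjusted here, and 492 in the comparison of 8 months against 2 months. For Cxcl1, DKO was the highest of 4 genotypes with CCl4 (52.9 FPKM against 9.64 in WT) and the lowest at 2 months (4.12 FPKM against 9.44 in WT). At 8 months against 2 months none passed either (background 0.184% and 0.0614%), and 3 were under 0.05 unadjusted, Cxcl14 (1.76, SE 0.71, adjusted p = 1), Cxcl10 (1.14, SE 0.37, adjusted p = 0.874) and Cxcl1 (1.04, SE 0.39, adjusted p = 1).

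The CCl4 DKO column also differed from the other CCl4 columns in some cell markers. Its hepatocyte marker sum was 9975 FPKM, against 4288 in E2KO, 4241 in E1KO and 3639 in WT with CCl4, and Cyp2e1 and Cyp3a11 carried most of that difference. Cyp2e1, the enzyme that activates CCl4, was at 3857 FPKM in DKO, against 386 in E2KO, 151 in E1KO and 464 in WT, while the 5 markers other than these summed to 2242 FPKM in DKO, 1510 in E2KO, 2245 in E1KO and 1598 in WT. The 5 proliferation markers summed to 31.7 FPKM in DKO, against 74.9 in E2KO, 71.8 in E1KO and 120 in WT. The neutrophil marker sum of DKO was not the highest, at 346 FPKM, against 475 in E2KO, 1008 in E1KO and 208 in WT, and Lcn2 was at 291 FPKM in DKO, against 452 in E2KO, 972 in E1KO and 194 in WT. Without Lcn2 the sum was 55.4 FPKM in DKO, 22.9 in E2KO, 35.6 in E1KO and 14.2 in WT, nearly all of it S100a8 and S100a9. Ngp and Camp were highest in E2KO, and Retnlg was highest in DKO (3.64 FPKM). The part of these in the Cxcl1 value was not tested.

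**Figure D4:**
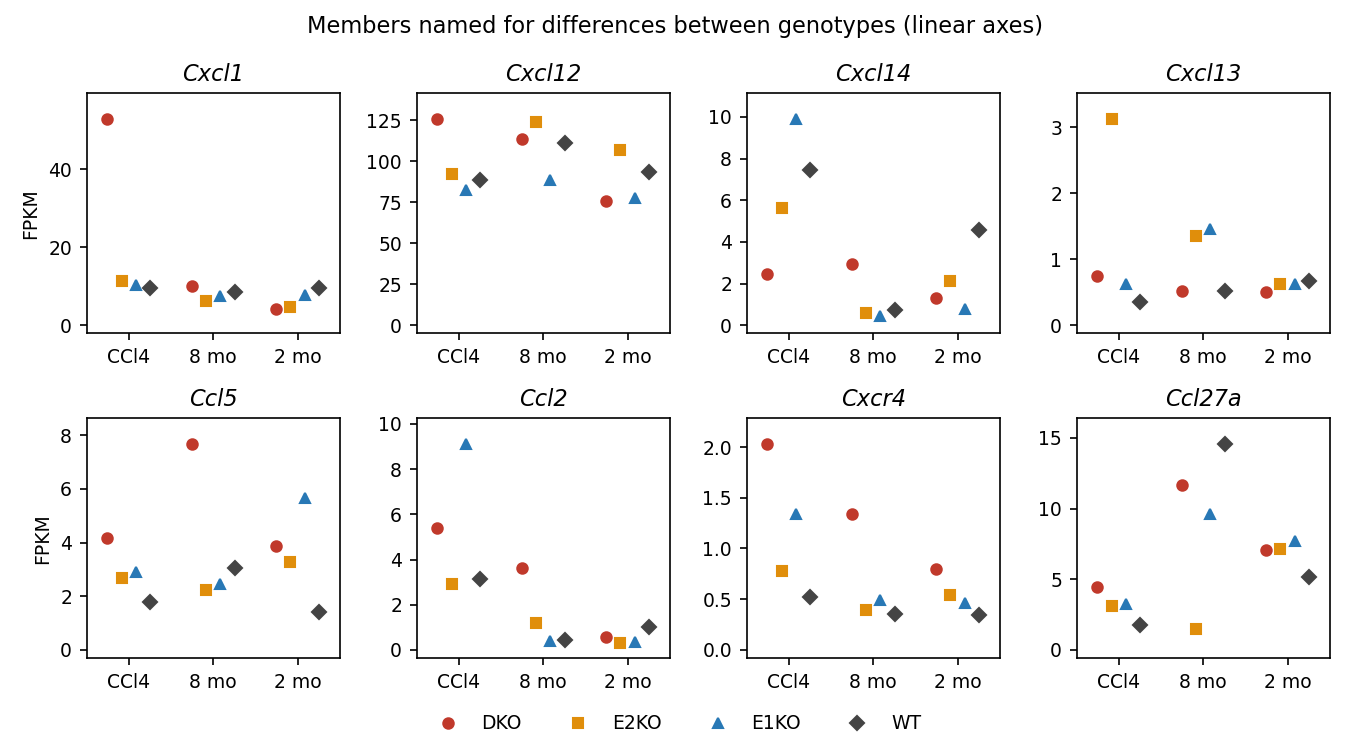
FPKM (linear axes) of 8 chemokine genes named for differences between genotypes, by condition (CCl4 at 3 months, 8 months, 2 months), with 1 point per group (DKO circles, E2KO squares, E1KO triangles, WT diamonds). DKO is highest in Cxcr4 in each condition and far above the others in Cxcl1 with CCl4 (52.9 FPKM), and E2KO is lowest in Ccl27a at 8 months (1.46 FPKM).

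Within a condition there is no test, and a gene was named where log2(FPKM + 1) differed from WT by at least 1. In DKO with CCl4, Cxcl1 (2.34) and Cxcl9 (1.23) were above WT by this rule and Cxcl14 (-1.29) was below, while 2.93% of tested genes were above and 2.47% below. In DKO at 8 months Ccl2 (1.68), Ccl5 (1.10) and Cxcl14 (1.19) were above and none below (background 2.86% and 1.22%). The sum of recruited macrophage markers in that column was 342 FPKM, against 55.1 in E2KO, 56.8 in E1KO and 65.2 in WT, with 290 FPKM of it from Spp1, which is also a bile duct cell marker. Without Spp1 it was 51.5 FPKM in DKO, against 28.8 in E2KO, 29.5 in E1KO and 23.9 in WT. The bile duct cell markers other than Spp1 summed to 25.8 FPKM in DKO, against 4.48 in E2KO, 9.94 in E1KO and 6.41 in WT, with Epcam at 3.83 FPKM in DKO, against 0.35 in E2KO, 0.57 in E1KO and 0.63 in WT. The part of these cells was not tested. In DKO at 2 months Ccl5 (1.01) was above and Ccl6 (-1.50), Cxcl14 (-1.27) and Cxcl1 (-1.03) were below (background 1.99% and 1.48%).

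In E2KO, 1 gene met the rule in each condition. Cxcl13 was above WT with CCl4 (1.61, background 0.421% above and 0.579% below), at 3.12 FPKM in E2KO against 0.35 FPKM in WT. Ccl27a was below WT at 8 months (-2.66, background 1.38% above and 1.42% below), and Ccl6 was below at 2 months (-1.41, background 0.395% and 0.816%). Cxcl13 in full read 0.74, 3.12, 0.62 and 0.35 FPKM with CCl4, 0.52, 1.35, 1.45 and 0.52 FPKM at 8 months and 0.50, 0.63, 0.63 and 0.67 FPKM at 2 months (DKO, E2KO, E1KO, WT). Thus E2KO was highest with CCl4, and E1KO stood slightly above it at 8 months. In E1KO with CCl4, Ccl2 (1.30) and Ccl7 (1.02) were above WT (background 1.2% above and 0.825% below), at 8 months no gene met the rule (background 0.843% and 1.1%), and at 2 months Ccl5 (1.47) was above and Ccl6 (-1.03) and Cxcl14 (-1.66) were below (background 1.09% and 1.14%).

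Ccl6 was below the 2-month WT column in all 3 mutant genotypes, and Cxcl14 in DKO and E1KO by the same rule. At 2 months the acute phase gene Saa1 was at 318 FPKM in DKO, 466 in E2KO and 240 in E1KO, against 2517 FPKM in WT. Lcn2 was at 30.3 FPKM in DKO, 7.28 in E2KO and 23.2 in E1KO, against 156 FPKM in WT. Whether this bears on Ccl6 and Cxcl14 was not tested.

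The order of genotypes differed by condition. With CCl4, E1KO held the highest value of the 4 genotypes in 11 of the 21 tested genes, DKO in 8, E2KO in 2 and WT in none, while over all tested genes these shares were 21.2%, 30.6%, 21% and 27.2%. At 8 months DKO was highest in 15 genes, E2KO in 3, E1KO in 2 and WT in 1 (26.7%, 32.5%, 12% and 28.8% of all tested genes). At 2 months DKO was highest in 3, E2KO in 1, E1KO in 8 and WT in 9 (21%, 26.9%, 24.1% and 28%). Of the 19 genes that entered without the DKO columns, DKO was highest in 7 with CCl4, in 13 at 8 months and in 2 at 2 months. The shares above are over all tested genes, and none was computed for genes that enter without the DKO columns. Ccr1, 1 of the 11 genes highest in E1KO with CCl4, reached 1 FPKM only there and in DKO with CCl4. With CCl4 the Kupffer cell markers summed to 638 FPKM in E1KO, against 518 in DKO, 378 in E2KO and 308 in WT, and the recruited macrophage markers to 1026 FPKM in E1KO, against 1034 in DKO, 531 in E2KO and 562 in WT. Stellate cell markers summed to 217 FPKM in E1KO, against 117 in DKO, 134 in E2KO and 128 in WT, and E1KO also had the highest neutrophil sum, given above. The part of these cells in the counts, or in the Ccl2 and Ccl7 values of E1KO, was not tested. These are counts over genes of 1 column each, with no test, and genes that share cells of origin do not vary independently.

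**Figure D5:**
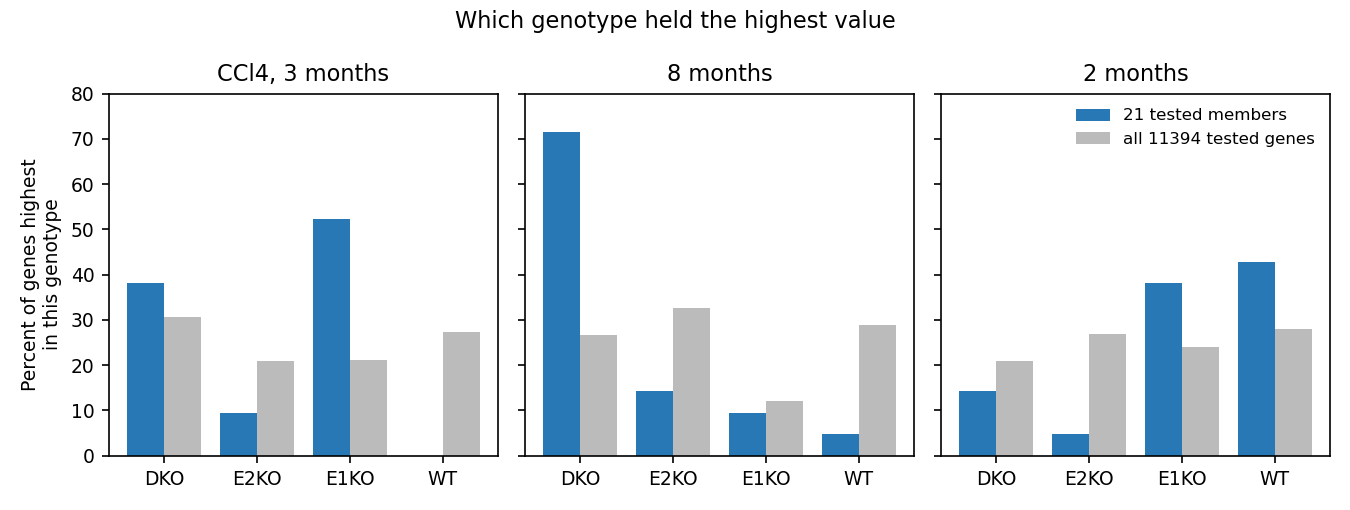
Percent of the 21 tested chemokine genes (blue bars) and of all 11394 tested genes (grey bars) in which each genotype (DKO, E2KO, E1KO, WT) held the highest FPKM, in panels for CCl4 at 3 months, 8 months and 2 months. DKO leads at 8 months (15 genes), E1KO with CCl4 (11), and WT with none there.

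The other genes of chemokine signalling came from a list of 31 genes (G protein and arrestin partners, transcription factors, and ligands outside the symbol rule), of which 24 were tested. With CCl4 against 2 months 12 were higher and 1 was lower, against 33.4% and 24.5% of all tested genes, and the median difference was 0.29, against 0.07 over all genes. Of these 24, Arrb1, Fos, Relb and Il1b would not have entered the test without their CCl4 columns, and among the other 20, 10 were higher and 1 was lower (background 29% and 26.5%). Pf4, a platelet and macrophage CXC chemokine, had the largest difference (2.15, SE 0.12, adjusted p = 1.5e-05), at 13.3 FPKM in DKO, 8.20 in E2KO, 16.4 in E1KO and 8.69 in WT with CCl4, and 1.13 to 3.05 FPKM untreated. The stress factor Atf3 (1.12, adjusted p = 0.000327) and the G protein subunit Gnai2, which couples chemokine receptors (0.82, adjusted p = 0.000163), rose. Arrb1, a desensitizing adaptor, was at 1.91 to 2.71 FPKM with CCl4 and 0.61 to 0.99 FPKM untreated, and Fos at 1.65 to 3.04 FPKM with CCl4 and 0.25 to 1.42 FPKM untreated. Nfkbia, the inhibitor of NF-kappa B that is also its target, fell (-0.91, adjusted p = 0.000247). It was at 23.3 FPKM in DKO, 15.6 in E2KO, 20.8 in E1KO and 13.2 in WT with CCl4, and 26.0 to 40.4 FPKM untreated. In DKO against WT none of the 24 genes passed, and Pf4 came nearest (0.62, SE 0.14, adjusted p = 0.0628).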

How the data were processed

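Whole-liver RNA-seq of 12 groups was used as 1 table of FPKM values deposited by the authors, with 1 column per group. Per the submitters' processing notes, CASAVA, TopHat, Cufflinks, BWA, SICER and HOMER were used for the series on mm9, with no versions and no word on how replicates were merged. The 9 ChIP-seq samples are not analysed here. The values of 1 of the described genes are not reported here, though counts over the genes include it. The members, gene lists and tests were chosen with earlier results of these data known. Genes were named where they passed a test (up to 8 per comparison), had 1 of the 8 highest means or met the rule within a condition. The 11394 genes that reached 1 FPKM in 2 or more columns were fitted as log2(FPKM + 1) with limma 3.58.1 in R 4.3.3, with genotype and condition as additive terms (6 residual degrees of freedom) or with DKO-by-condition terms (4). Tests were two-sided, with Benjamini-Hochberg adjustment at 0.05. The scripts were tested on simulated data. The alternatives were a pseudocount of 0.1, other filters, median ratio scaling, no trend, and fits without single columns, genotypes or conditions. Depth is unknown, so no counting interval is given. Promoters came from RefSeq (GRCm38.p6), whose build differs from that of the files.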

Additional observations from a re-analysis of the deposited data

How the results depend on the processing

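The main limit is 1 merged column per group, so that neither the spread between animals nor the counting error is known. No paired analysis was possible because each column merges its replicates and carries no replicate number. Single genes were followed under the alternatives only where they had passed a test or met the rule within a condition. The exception was Cxcl1 in the DKO difference with CCl4 against 2 months, the only result that could gain the threshold. Of 340 such values, 315 kept their direction and their side of the threshold, 24 lost it, 1 gained it and none changed direction. Single genes that had not passed were otherwise not followed. With CCl4 against 2 months, 12 genes passed. The count was 6 for genes with a mean of at least 1 FPKM, which leaves out low genes, and 10 to 12 when 1 genotype was left out. Cxcl1 passed in 6 of 13 alternatives (0.52 to 1.64, adjusted p 0.0329 to 0.121), and Cxcr4 in 11 of 12 (not without E1KO, adjusted p = 0.0623). The 10 others passed in every alternative that tested them. With CCl4 against 8 months 13 passed, 21 with no filter, 7 for genes with a mean of at least 1 FPKM, and 10 to 14 when 1 genotype was left out. There Ccl2 was lost without E1KO (0.94, adjusted p = 0.0585), Cxcl14 without WT, E1KO or E2KO (adjusted p 0.0544 to 0.0605), and Cxcr4 without E1KO, without E2KO or without the 8-month E1KO column (adjusted p 0.0557 to 0.117). In DKO against WT the count of 1 (Cxcr4) became 0 with no filter (adjusted p = 0.0592), with a mean of at least 1 FPKM (Cxcr4 was not tested), without the 8-month E1KO column, without 1 condition (0 to 0), with only the DKO and WT columns (adjusted p = 0.197), and, in fits chosen after seeing the data, without the 2-month WT column and without the 8-month DKO column. It stayed at 1 with a pseudocount of 0.1, median ratio scaling or no trend. With no filter 1 gene, Ccl20, which stayed under 1 FPKM in every column, passed in the DKO difference at 8 months against 2 months and 1, Cxcl1 (2.87, adjusted p = 0.0377), in that with CCl4 against 2 months, where 0 had. Median ratio scaling shifted a column by at most 0.07 on the log2 scale. Under it the 2-month DKO value of Cxcl1 against WT was -0.97, short of the size used within a condition.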

Other observations

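Of the 18 chemokine genes past the threshold with CCl4 against 2 months when no filter on low values was set (limma), 4 stayed under 1 FPKM everywhere. Ccl12, a mouse monocyte attractant, averaged 0.402 FPKM with CCl4 and 0.065 FPKM at 2 months, and Cxcl17, a mucosal chemokine, 0.352 and 0.02 FPKM with CCl4 and at 2 months. The other 2, Ccl1 and Cxcl3, were at or under 0.10 FPKM. Ccl3 (0.57, adjusted p = 0.0217), Ccl8 (0.65, adjusted p = 0.0319) and Cxcr7, the scavenger receptor of Cxcl12 now named Ackr3 (0.66, adjusted p = 0.00935), also passed in that fit. Cxcr7 was at 0.81 FPKM in DKO, 0.98 in E2KO, 0.93 in E1KO and 1.10 in WT with CCl4. At 8 months it was at 0.88, 0.16, 0.46 and 0.17 FPKM and at 2 months at 0.39, 0.14, 0.20 and 0.21 FPKM, so that DKO was the highest untreated genotype at both ages and the lowest with CCl4. Xcl1, the ligand that NK and T cells use to draw cross-presenting dendritic cells, reached 1.00 FPKM in DKO at 8 months, against 0.33 in E2KO, 0.15 in E1KO and 0.19 in WT, and was not tested in the filtered fit. Ccr7, the receptor that guides dendritic cells and T cells to lymph nodes, was at 0.55 FPKM in DKO at 8 months, against 0.05 in E2KO, 0.15 in E1KO and 0.12 in WT.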
